A study of Mus musculus with 14 samples.

Results

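The 137 expressed long intergenic noncoding RNAs (lincRNAs) of mouse embryonic stem cells (ESCs) were taken from an RNA-seq table of 41204 genes, of which 2759 carried the lincRNA label. They were chosen by their level, a mean over the 8 samples of 1 FPKM or more (FPKM: fragments per kilobase of transcript, scaled to the mapped fragments of the library), and 3 imprinted lincRNAs above that level were left out. The study asked what the loss of Trincr1, the lincRNA listed as Gm2694, does to ESCs, and which RNAs the RNA-binding protein TRIM71 holds. All RNA-seq samples came from ESCs of C57BL/6(F) x 129/sv(M) background, grown on gelatin. The 2iL medium was N2B27 with the MEK inhibitor PD0325901 at 1.0 µM, the GSK3 inhibitor CHIR99021 at 3.0 µM and leukemia inhibitory factor (LIF) at 1000 units per ml. For PDL, cells were plated in 2iL for 24 hours and kept for a further 4 days in N2B27 with PD0325901 and LIF but without CHIR99021, and the labels give the concentrations for 2iL only. Wild-type (WT) and Trincr1-ko ESCs were sequenced in each medium, with 2 samples per group. In Trincr1-ko ESCs a pair of guides had flanked every exon of Gm2694 but the first, and the sources do not say which clone was sequenced or whether the samples of a group were grown apart, so the p-values measure only the spread between these samples. TRIM71 binding was measured in a separate experiment on ESCs that overexpressed 3XFlag-Trim71 in 2iL.

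LincRNAs are transcripts of RNA polymerase II, mostly capped and polyadenylated, that lie outside protein-coding genes and hold no long reading frame. Some act where they are made, on nearby genes or on nuclear bodies, some act in the cytoplasm by binding proteins or microRNAs, and others serve mainly as hosts from which small RNAs are cut. In mouse ESCs a number of them are tied to the naive pluripotent state, which CHIR99021 sustains by stabilising beta-catenin and relieving genes that TCF7L1 represses.

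The sequences that follow belong to lincRNAs on which the results turn. The first set holds the promoter windows, from 250 bases before the RefSeq start to 50 bases after it (GRCm38.p6), of the lincRNA with the deepest fall in PDL and of the one with the strongest rise in WT. The windows lie on the minus strand at chr16:93794852-93795151 and chr8:92356071-92356370. Capitals mark a TCF/LEF motif, searched as CTTTGAT or CTTTGTT on both strands.
2310043M15Rik: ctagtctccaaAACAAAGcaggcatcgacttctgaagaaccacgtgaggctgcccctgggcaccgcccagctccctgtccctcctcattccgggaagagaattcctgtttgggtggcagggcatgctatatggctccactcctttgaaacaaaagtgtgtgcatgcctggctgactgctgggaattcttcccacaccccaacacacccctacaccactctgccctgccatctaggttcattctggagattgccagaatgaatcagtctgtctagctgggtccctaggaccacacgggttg
Crnde: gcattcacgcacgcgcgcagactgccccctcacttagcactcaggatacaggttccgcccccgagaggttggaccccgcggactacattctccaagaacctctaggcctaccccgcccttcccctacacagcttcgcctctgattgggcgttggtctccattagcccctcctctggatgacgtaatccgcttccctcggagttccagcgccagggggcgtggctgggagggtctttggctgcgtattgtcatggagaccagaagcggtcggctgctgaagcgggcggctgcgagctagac
The 2310043M15Rik window held the motif on its minus strand, starting at position -239 relative to the RefSeq start. Of the 70 lincRNAs with a window, 3 held the motif, against 9.28% of the first windows of 27025 genes. It stood in 1 of 14 windows of lincRNAs lower in WT PDL, in 1 of 14 of those higher and in 1 of 42 of the rest.

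The second set shows the starts of 5 snoRNA host genes, which carry small nucleolar RNAs in their introns and whose host transcripts often begin with a pyrimidine tract. Each sequence runs from 30 bases before the RefSeq start, and capitals mark a run of 5 or more C or T within 5 bases of the start.
Snhg7: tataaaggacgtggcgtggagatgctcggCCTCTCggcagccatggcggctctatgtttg
Snhg12: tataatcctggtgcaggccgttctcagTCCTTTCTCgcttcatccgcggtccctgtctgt
Snhg18: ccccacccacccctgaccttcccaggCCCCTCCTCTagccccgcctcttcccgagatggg
Snhg1: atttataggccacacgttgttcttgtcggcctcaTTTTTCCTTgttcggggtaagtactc
2810008D09Rik (Snhg20): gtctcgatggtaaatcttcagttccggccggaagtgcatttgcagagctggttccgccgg
These windows lie at chr2:26640215-26640274 (minus), chr4:132308648-132308707 (plus), chr15:32244633-32244692 (minus), chr19:8723457-8723516 (plus) and chr11:117076753-117076812 (plus). Such a run stood at 32.9% of all gene starts, and the start of Snhg20, the RefSeq name of 2810008D09Rik, had none.

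The third set shows mature microRNAs encoded inside these lincRNAs, with the seed (bases 2 to 8) in capitals. Among the lincRNAs searched, 8 held 16 RefSeq microRNA hairpins, counted on either strand. The count is not complete, since it leaves out Mir124a-1 and Mir3078, which overlap A930011O12Rik. Mir17hg is the host of the miR-17-92 cluster, whose miR-17 and miR-20a share a seed, as do miR-19a and miR-19b.
mmu-miR-17-5p: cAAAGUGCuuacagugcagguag
mmu-miR-20a-5p: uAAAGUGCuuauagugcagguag
mmu-miR-18a-5p: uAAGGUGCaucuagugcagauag
mmu-miR-19a-3p: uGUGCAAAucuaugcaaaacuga
mmu-miR-19b-3p: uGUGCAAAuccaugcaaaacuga
mmu-miR-92a-3p: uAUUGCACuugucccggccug
mmu-let-7d-5p (inside 6720427I07Rik): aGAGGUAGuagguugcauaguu
mmu-miR-374b-5p (inside Ftx): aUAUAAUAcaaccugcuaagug
The levels of the host transcripts are given with the medium comparison, and the mature microRNAs themselves were not measured in these poly(A) libraries.

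The lincRNAs were mostly rare transcripts. Their median level was 3.22 FPKM, against 12.0 FPKM for the 11219 protein-coding genes at 1 FPKM or more, and both medians follow from the same cutoff. By level, 88 lincRNAs lay under 5 FPKM, 52 of them under 2 FPKM, and 27 reached 10 FPKM. Just inside the cutoff lay 2410017I17Rik at 1.013 FPKM, Linchoxa1 at 1.003 FPKM and 1700086P04Rik at 1.003 FPKM. Just outside lay Fam120aos at 0.988, 4930444M15Rik at 0.944 and 6030442K20Rik at 0.942 FPKM. A group mean under 1 FPKM was found for 39 lincRNAs, which entered through the groups where they were higher, and 98 were at 1 FPKM or more in all 4 group means. Only 4 were listed at 0 in any sample.

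Yam1 was listed as the most abundant lincRNA, at 545 to 981 FPKM, and made up 29.0 to 43.8% of the summed FPKM of the 137. Its locus on chromosome 17 overlaps a ribosomal RNA repeat (Rn18s-rs5), so its reads cannot be told apart from those of rRNA. Next came Lincenc1 (RefSeq Lncenc1), an ESC lincRNA, with 123 and 120 FPKM in the WT 2iL samples. Gm26825 followed with 111 and 152 FPKM in the same samples, and it overlaps a pseudogene. Then came the snoRNA hosts Snhg6, 2410004N09Rik (Epb41l4aos) and Snhg12, the nuclear lincRNAs Malat1 and Neat1, RP24-105B23.1, which lies over Platr10, and 1810058I24Rik, which RefSeq now lists as protein-coding. The 137 lincRNAs together made up 0.377 to 0.450% of all FPKM in a sample. In current RefSeq, 9 of the matched lincRNAs were protein-coding and 35 of the 137 overlapped another protein-coding gene, whose reads cannot be told apart from theirs because the counting is not stated to use strand. For 94 neither was the case.

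**Figure D1:**
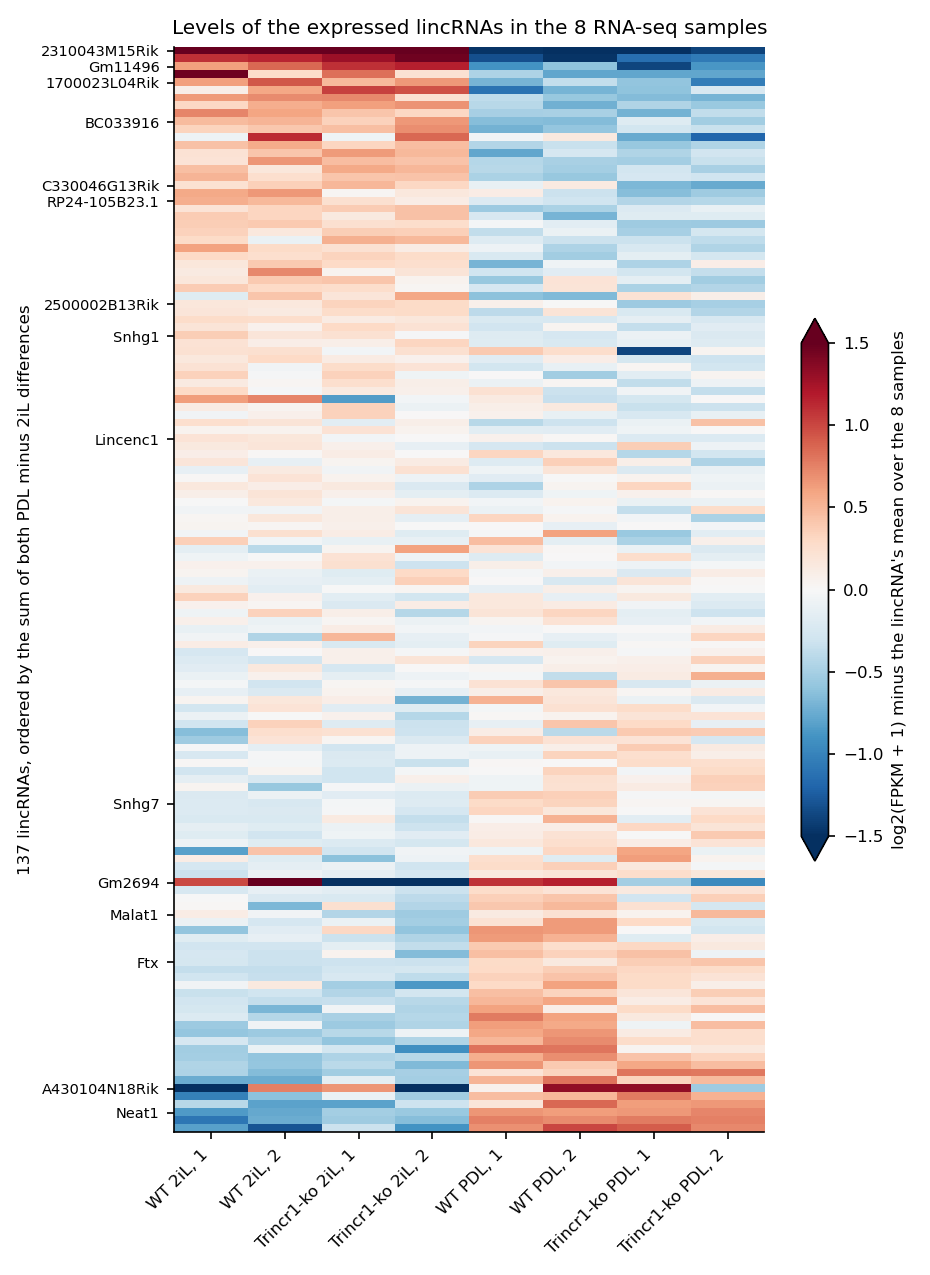
Heat map of the 137 lincRNAs (lines, ordered by the sum of the PDL minus 2iL differences of both genotypes) in the 8 samples (columns). Color gives log2(FPKM + 1) minus the mean of that lincRNA over the samples, with red above and blue below it; the top of the map is lower and the bottom higher in the 4 PDL samples, and the line of Gm2694 follows the genotype.

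The targeted lincRNA, Gm2694 (ENSMUSG00000097248, chromosome 8, 87472811 to 87525554), followed the labels. In 2iL it stood at 5.70 and 9.45 FPKM in WT and at 0.0754 and 0 FPKM in Trincr1-ko. In PDL it stood at 6.18 and 6.56 FPKM in WT and at 1.38 and 0.746 FPKM in Trincr1-ko. WT and Trincr1-ko samples did not overlap in either medium, although reads remained in both PDL Trincr1-ko samples. The log2(FPKM + 1) difference was -3.01 ± 0.23 (SE) in 2iL (limma, adjusted p = 0.00317) and -1.85 ± 0.23 in PDL (adjusted p = 0.00535). With only the 2 groups of 2iL in the fit, the former did not pass (adjusted p = 0.126). Between media Gm2694 changed by -0.18 ± 0.23 in WT, which did not pass (adjusted p = 0.539), and by 0.98 ± 0.23 in Trincr1-ko (adjusted p = 0.0105), where the call was lost without Trincr1-ko 2iL replicate 2 or Trincr1-ko PDL replicate 1. Whether the remaining reads fall on the exon left in place cannot be told from values per gene.

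Depth could only be estimated, from the smallest steps between FPKM values, at 7.72 to 10.7 M fragments per sample. The 8 naive ESC markers were at 1 FPKM or more in every sample, and their summed level was 1958 to 1979 FPKM in 2iL, 1261 to 1267 in WT PDL and 1065 to 1079 in Trincr1-ko PDL. Markers of other lineages were low but moved with the medium and, in PDL, stood higher in Trincr1-ko. The summed level of 6 neural progenitor markers was 6.97 to 8.43 FPKM in 2iL, 28.1 and 30.9 in WT PDL and 37.9 and 38.3 in Trincr1-ko PDL. That of 6 primitive endoderm markers was 1.04 to 1.44 FPKM in 2iL, 5.05 and 4.31 in WT PDL and 5.89 and 5.58 in Trincr1-ko PDL. That of 8 fibroblast markers was 0.556 to 1.35 FPKM in 2iL, 4.14 and 4.59 in WT PDL and higher in both Trincr1-ko PDL samples, at up to 6.40. The part of these cells in the medium differences and in the PDL genotype differences given here was not tested. In bulk RNA, fewer cells of a type and less RNA per cell cannot be told apart.

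The first comparison was between media, and asked how the lincRNAs responded to the withdrawal of CHIR99021. In WT ESCs, 32 of the 137 lincRNAs rose in PDL, where 30.9% of all 15430 genes tested rose, and 32 fell, where 21.3% of all genes fell (limma on log2(FPKM + 1), adjusted p under 0.05). In Trincr1-ko ESCs, 30 rose, where 29.6% of all genes rose, and 36 fell, where 20.3% fell. The median difference of the 137 was 0.05 in WT and 0.00 in Trincr1-ko, against 0.08 and 0.07 over all genes tested. Rises made up 23.4% and 21.9% of the lincRNAs and falls 23.4% and 26.3%. Of the 11219 protein-coding genes at 1 FPKM or more, the same cutoff, 34.6% and 32.4% rose and 25.8% and 24.4% fell. Among the 98 at 1 FPKM or more in every group, 25 rose and 19 fell in WT, and 22 rose and 23 fell in Trincr1-ko. Among the 94 free of protein-coding overlap, 18 rose and 25 fell in WT, and 16 rose and 29 fell in Trincr1-ko. A difference of more than 1 on the log2 scale was found for 23 lincRNAs (16.8%) in WT, where 11.7% of all genes had one. In Trincr1-ko it was found for 16 (11.7%), where 12.6% of all genes had one. Among the 98 at 1 FPKM or more in every group, 14 (14.3%) had one in WT and 9 (9.18%) in Trincr1-ko. Of the protein-coding genes at 1 FPKM or more, 13.6% had one in WT and 14.4% in Trincr1-ko. The split of all genes tested into rises and falls moved with the scaling. With median-of-ratios scaling, 4114 rose and 3978 fell in WT, against 4765 and 3283 as reported. In Trincr1-ko 4017 rose and 3827 fell, against 4572 and 3136. The median over all genes was then 0.01 in each genotype. The split of the 137 under that scaling is not given here.

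The genotypes called largely overlapping lincRNAs. They share no sample in this comparison, but their errors came from the same fit of all groups. The calls in WT and in Trincr1-ko are therefore not independent. Of the risers, 25 passed in both, or 78.1% of those in WT and 83.3% of those in Trincr1-ko. Of the fallers, 25 passed in both, or 78.1% and 69.4%. For all genes the shared risers came to 77.0% and 80.2%, and the shared fallers to 72.8% and 76.2%.

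**Figure D2:**
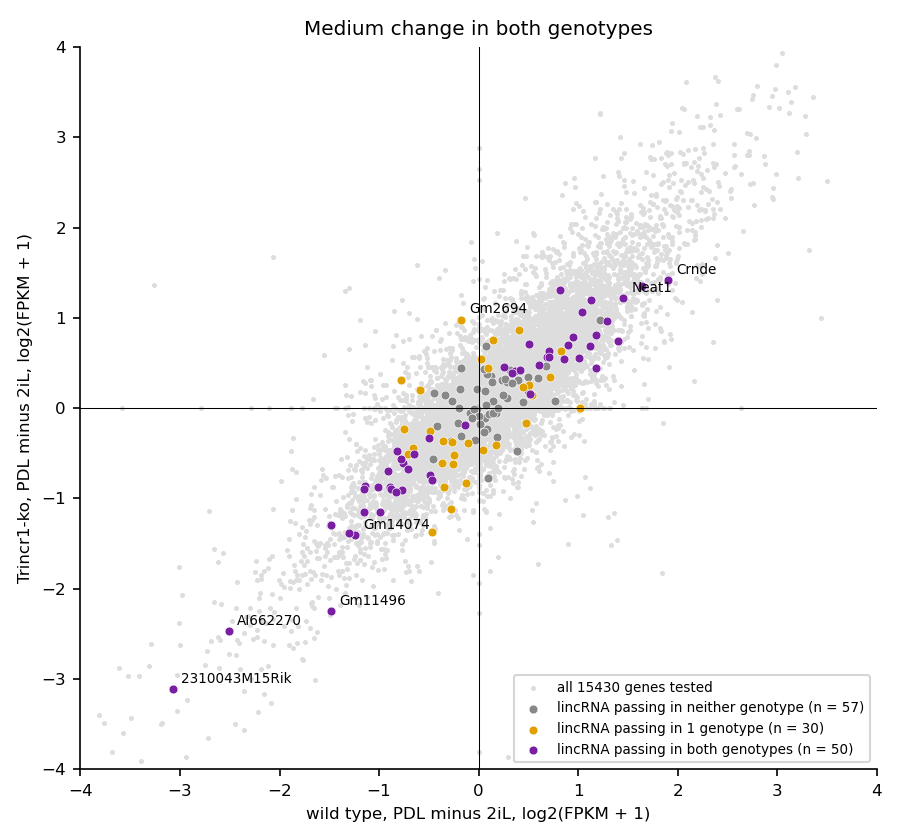
Difference between PDL and 2iL in log2(FPKM + 1), in WT (x axis) and in Trincr1-ko (y axis), for all 15430 genes tested (light gray) and the 137 lincRNAs, of which 50 passed in both genotypes, 30 in 1 and 57 in neither; 30 genes lie beyond the axes. 2310043M15Rik and AI662270 lie at the lower left, and Crnde and Neat1 at the upper right.

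The deepest fall was that of 2310043M15Rik (ENSMUSG00000097768, chromosome 16, 93792149 to 93794888), the lincRNA whose promoter window is printed above. It was at 13.3 and 13.0 FPKM in WT 2iL and at 13.0 and 13.3 FPKM in Trincr1-ko 2iL. In PDL it was at 0.746 and 0.636 FPKM in WT and at 0.456 and 0.850 FPKM in Trincr1-ko. All 4 PDL samples thus lay far below all 4 samples of 2iL, with the same levels in the 2 genotypes to within the spread of the samples. The differences were -3.07 ± 0.13 in WT (limma, adjusted p = 7.86e-06) and -3.11 ± 0.13 in Trincr1-ko (adjusted p = 4.98e-06). Its locus overlaps Dopey2, which did not pass in either genotype (0.07 and -0.31).

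AI662270 fell in the same way. Its level was 14.1 and 14.7 FPKM in WT 2iL and 1.85 and 1.55 FPKM in WT PDL. In Trincr1-ko it was 16.3 and 18.5 FPKM in 2iL and 2.23 and 2.39 FPKM in PDL. The groups did not overlap, and the differences were -2.51 ± 0.11 and -2.47 ± 0.11 (limma, adjusted p = 7.00e-06 and 4.98e-06). Gm11496 went from 2.96 and 3.69 FPKM to 0.394 and 0.704 FPKM in WT, a difference of -1.48 ± 0.20. In Trincr1-ko it went from 4.53 and 4.83 FPKM to 0 and 0.415 FPKM, a difference of -2.25 ± 0.20. 1700023L04Rik (RefSeq Smkr-ps) fell by 1.30 ± 0.20 and 1.38 ± 0.20. These 4 passed in every alternative fit, and with 0.1 FPKM added in place of 1 the differences of Gm11496 were -2.43 and -4.40.

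The lincRNAs that earlier work ties to ESC self-renewal or differentiation made up a list of 18. In WT PDL 7 of them fell and 2 rose, and in Trincr1-ko PDL 9 fell and 4 rose, with median differences of -0.23 and -0.41. Of all genes tested, 21.3% and 20.3% fell and 30.9% and 29.6% rose. The 4 risers in Trincr1-ko include the targeted Gm2694, whose remaining level went from 0.0754 and 0 FPKM to 1.38 and 0.746 FPKM. With the genes of the list that carry other labels or lie under 1 FPKM, 26 were tested, of which 4 rose and 7 fell in WT and 7 rose and 10 fell in Trincr1-ko, with medians of -0.09 and -0.20. Gm14074 (Platr3) was at 10.6 and 15.4 FPKM in WT 2iL and at 4.09 and 5.73 FPKM in WT PDL, and in Trincr1-ko at 21.3 and 20.1 and then at 6.17 and 8.24 FPKM. It fell by 1.24 ± 0.21 in WT (limma, adjusted p = 0.00198) and by 1.41 ± 0.21 in Trincr1-ko (adjusted p = 0.00113), and no PDL sample reached the lowest 2iL sample. RP24-105B23.1, over Platr10, fell by 0.76 ± 0.06 and 0.61 ± 0.06. Trp53cor1, the p53-induced lincRNA-p21, fell by 0.65 ± 0.14 and 0.51 ± 0.14, the latter not called without either Trincr1-ko 2iL sample or Trincr1-ko PDL replicate 2.

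Linchoxa1 (Halr1) lies downstream of the HoxA cluster, which retinoic acid opens in ESCs. In 2iL it was at 3.69 and 1.07 FPKM in WT and at 2.02 and 0.998 FPKM in Trincr1-ko. In PDL it was at 0.245 and 0 FPKM in WT and listed at 0 in both Trincr1-ko samples. The WT difference was -1.48 ± 0.37 (limma, adjusted p = 0.0130), it shrank to -0.89 without WT 2iL replicate 1, and it did not pass without WT PDL replicate 2. Lincenc1 differed little between media, with falls of 0.14 ± 0.04, not called without WT 2iL replicate 1 or WT PDL replicate 2, and of 0.19 ± 0.04. Of the risers in this list, Gm16880 (Platr22) rose by 1.12 ± 0.23 in WT and by 0.69 ± 0.23 in Trincr1-ko. The latter was not called in 9 of 17 alternative fits, among them those without any 1 PDL sample and that without Trincr1-ko 2iL replicate 2, where it was 0.38. 1700020I14Rik (Oip5os1, or Cyrano), which directs the decay of miR-7, rose by 0.37 ± 0.09 and 0.41 ± 0.09. The former was not called without either WT PDL sample or without WT 2iL replicate 1, where it was 0.24, and the latter not without Trincr1-ko 2iL replicate 2 or Trincr1-ko PDL replicate 1.

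Among the nuclear lincRNAs, Neat1, the scaffold of paraspeckles, had the clearest rise. It was at 25.1 and 26.6 FPKM in WT 2iL and at 32.0 and 31.0 FPKM in Trincr1-ko 2iL. In PDL it was at 73.0 and 71.5 FPKM in WT and at 72.8 and 76.6 FPKM in Trincr1-ko. The differences were 1.45 ± 0.05 and 1.22 ± 0.05 (limma, adjusted p = 5.41e-06 and 4.98e-06). Its neighbour Malat1, which sits in nuclear speckles, was at 79.4 and 70.7 FPKM in WT 2iL and at 80.9 and 86.1 FPKM in WT PDL, a difference of 0.15 ± 0.13 that did not pass. In Trincr1-ko Malat1 went from 53.9 and 50.6 to 76.3 and 103 FPKM, a rise of 0.75 ± 0.13 (adjusted p = 0.00253). The test of the difference between the genotypes did not pass for Malat1 (0.60 ± 0.18, adjusted p = 0.149).

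Crnde had the largest rise in WT. Its level was 2.58 and 1.56 FPKM in WT 2iL and 9.07 and 11.6 FPKM in WT PDL, and 4.04 and 2.39 FPKM and then 10.8 and 9.40 FPKM in Trincr1-ko. No 2iL sample reached a PDL sample, and the differences were 1.90 ± 0.24 (limma, adjusted p = 0.000527) and 1.42 ± 0.24 (adjusted p = 0.00211). 4930516B21Rik rose by 1.64 ± 0.13 and 1.35 ± 0.13, from 1.86 to 3.18 FPKM over the 2iL samples to 8.87 to 9.39 FPKM in PDL. It overlaps RefSeq's Acvr2b, a receptor of the activin pathway, which rose by 1.16 and 1.11. AI480526 rose by 1.40 ± 0.15 and 0.74 ± 0.15, and 2410080I02Rik by 1.29 ± 0.20 and 0.96 ± 0.20. A330094K24Rik rose by 1.13 ± 0.27 and 1.20 ± 0.27, but in WT not without WT 2iL replicate 2 or WT PDL replicate 2, and in Trincr1-ko not without Trincr1-ko 2iL replicate 1. 6330403K07Rik, which RefSeq lists as protein-coding, rose by 0.82 ± 0.12 and 1.31 ± 0.12.

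The list of microRNA hosts fixed by name held 2 lincRNAs, Mir17hg and A930011O12Rik (Mir124a-1hg). Of these, 0 passed in WT, and 1 rose in Trincr1-ko, where 29.6% of all genes rose. A930011O12Rik differed by -0.27 ± 0.13 in WT and by 0.08 ± 0.13 in Trincr1-ko (limma, adjusted p = 0.115 and 0.646). With hosts of other labels or under 1 FPKM, 4 were tested, of which 1 rose in WT and 3 in Trincr1-ko. Mir17hg was at 13.7 and 13.2 FPKM in WT 2iL and at 13.7 and 13.6 FPKM in WT PDL, with a difference of 0.02 ± 0.07. In Trincr1-ko it went from 11.6 and 10.5 to 16.6 and 16.3 FPKM, a rise of 0.54 ± 0.07 (limma, adjusted p = 0.000716), and the difference between genotypes of 0.52 ± 0.10 did not pass (adjusted p = 0.0569). Ftx, a noncoding gene of the X inactivation centre that holds miR-374b, was at 1.25 and 1.15 FPKM in WT 2iL and at 2.28 and 1.98 FPKM in WT PDL. It rose by 0.51 ± 0.11 in WT and by 0.71 ± 0.11 in Trincr1-ko (adjusted p = 0.00772 and 0.00169). 6720427I07Rik, which holds let-7d, rose by 0.71 ± 0.11 and 0.56 ± 0.11. This lincRNA was chosen for its let-7d gene after its values were seen. A430104N18Rik, which holds miR-142 and was also chosen after its values were seen, showed how far 2 samples of a group could part, with 0 and 4.91 FPKM in WT 2iL and 7.75 and 1.42 FPKM in Trincr1-ko PDL.

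**Figure D3:**
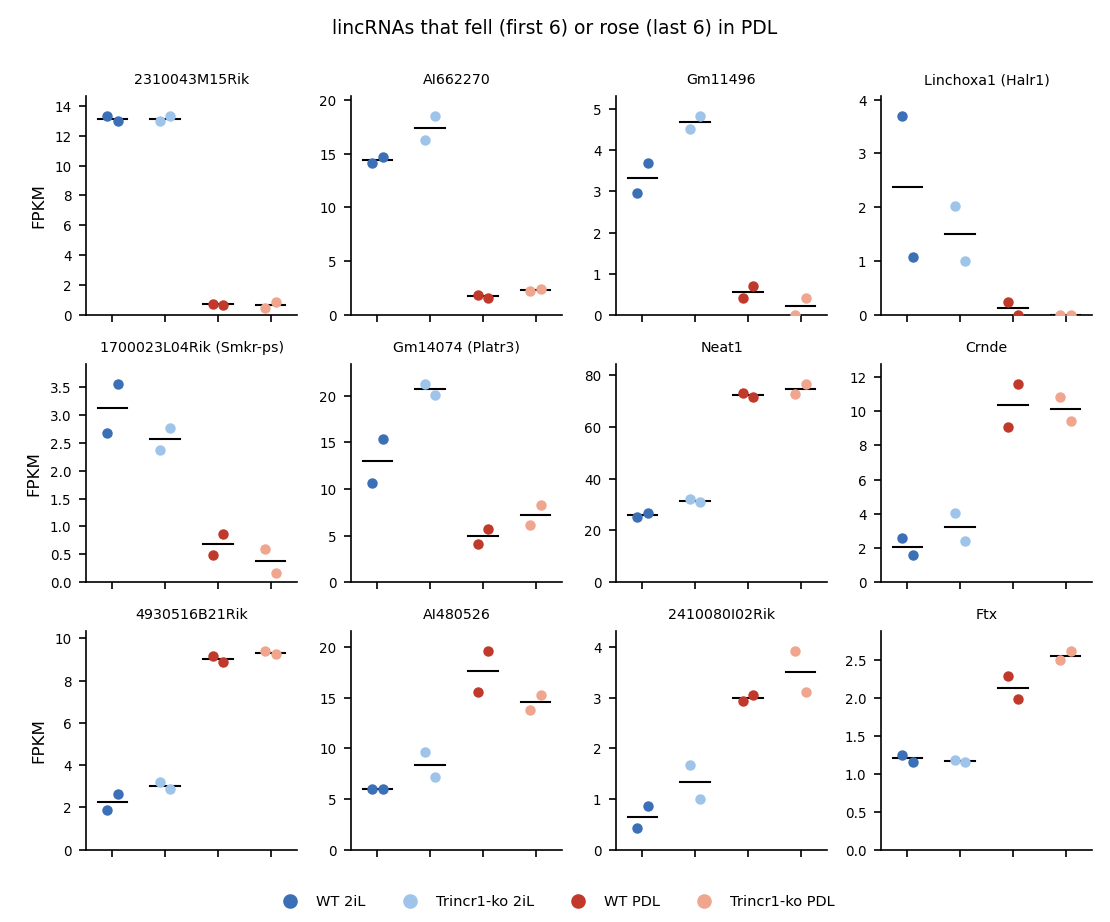
FPKM in each of the 8 samples (points, colored by group, with a bar at the group mean of 2 samples) for 6 lincRNAs that were lower and 6 that were higher in PDL. In each panel the y axis starts at 0, and the 2iL points lie apart from the PDL points.

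The 8 snoRNA hosts of a list fixed by name did not move as a block. In WT PDL, Snhg6, Snhg7 and 2810008D09Rik (Snhg20) rose and Snhg12, Snhg4 and Snhg1 fell, and the median difference was 0.15. The rise of 2810008D09Rik was not called without WT PDL replicate 2. In Trincr1-ko PDL, 1 rose and 3 fell, with a median of -0.21. Of all genes tested, 30.9% rose and 21.3% fell in WT, and 29.6% rose and 20.3% fell in Trincr1-ko. Snhg6, the host of Snord87, was at 65.6 and 71.8 FPKM in WT 2iL and at 99.5 and 98.2 FPKM in WT PDL, a rise of 0.52 ± 0.05 (limma, adjusted p = 0.000185). In Trincr1-ko it was at 68.0 and 66.0 FPKM and then at 75.3 and 74.9 FPKM, a rise of 0.16 ± 0.05 whose call was lost under median-of-ratios scaling (0.08, adjusted p = 0.226) and without any 1 PDL or Trincr1-ko sample. Snhg12 ran the other way, at 87.3 and 76.7 FPKM in WT 2iL and 53.0 and 63.8 FPKM in WT PDL, and fell by 0.49 ± 0.11 in WT (not called without WT 2iL replicate 1 or WT PDL replicate 1) and by 0.74 ± 0.11 in Trincr1-ko. 2410004N09Rik fell by 0.46 ± 0.12 in Trincr1-ko, by 0.24 without Trincr1-ko 2iL replicate 1, and its call was lost without either Trincr1-ko PDL sample. Outside the list, Gm17300, which holds Snora73a and Snora73b and was chosen after its values were seen, fell by 0.91 ± 0.09 and 0.70 ± 0.09. It overlaps Rcc1 and Snhg3, a host of the name list that carries another gene label, and their reads cannot be told apart. Snhg3 differed by -0.55 and -0.49 and Rcc1 by -0.53 and -0.34. With the hosts that carry other gene labels, such as Gas5, 17 of the name list were tested, of which 4 rose and 6 fell in WT and 2 rose and 8 fell in Trincr1-ko. The printed starts did not separate the directions, since Snhg7, which rose, and Snhg12 and Snhg1, which fell, all had a pyrimidine run.

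A tested protein-coding gene lay within 10000 bases of 85 lincRNAs, and overlapped 23 of them. In WT, 24 lincRNAs and their nearest such gene both passed in the medium comparison, and 20 of these pairs went the same way. Leaving out overlapping pairs, 13 of 17 went the same way (76.5%), against 62.6% of such pairs of protein-coding genes. In Trincr1-ko 13 of 15 did (86.7%), against 65.2%. With so few pairs these shares are a description. Crnde lies 1675 bases from Irx5, a homeobox gene of neural and limb patterning, which went from 0.132 ± 0.0268 to 1.19 ± 0.0747 FPKM (SD, n = 2) in WT and from 0.145 ± 0.0467 to 4.27 ± 0.325 FPKM in Trincr1-ko. Irx5 rose by 0.95 and 2.20, and this difference between genotypes passed for Irx5 (1.25, limma adjusted p = 0.0272) but not for Crnde (-0.48 ± 0.33, adjusted p = 0.495). Gm12688 lies 1315 bases from Foxd3, a transcription factor of pluripotent cells, and fell by 1.15 ± 0.17 in each genotype, where Foxd3 fell by 1.76 and 1.51. Gm14074 and Plcb4, 1300002E11Rik and Ehhadh, and Gm11496 and Coil were further pairs of which both fell in each genotype. Pairs that passed in opposite directions numbered 4 in WT and 4 in Trincr1-ko. Among them, 6330403K07Rik rose by 0.82 and 1.31, where its neighbour Mis12 differed by -0.61 and -0.26. Gm2694 lies 219 bases from Cbln1, a secreted synapse organiser, which rose in PDL by 0.72 in WT and by 1.38 in Trincr1-ko and did not pass between genotypes in either medium (-0.32 and 0.35).

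The second comparison was between genotypes. In 2iL, limma called 2 lincRNAs lower and 0 higher in Trincr1-ko, where 0.855% of all genes tested were lower and 0.350% higher, and 20 lincRNAs had an unadjusted p under 0.05, as had 2253 of the 15430 genes tested. Gm2694 was the first. The other, RP24-105B23.1, was at 101 and 97.1 FPKM in WT and at 81.8 and 74.7 FPKM in Trincr1-ko, a difference of -0.34 ± 0.06 (adjusted p = 0.0488). Its groups did not overlap, but the call was lost in 14 of 17 alternative fits, including each that left out a library.

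In PDL, 11 lincRNAs were lower in Trincr1-ko, where 5.77% of all genes tested were lower, and 2 were higher, where 6.29% were higher. These came to 8.03% and 1.46% of the 137, with a median difference of -0.06 against 0.01 over all genes. Of the 11219 protein-coding genes at 1 FPKM or more, the same cutoff, 6.99% were lower and 7.70% higher. The targeted Gm2694 is among the 11. The summed level of the naive ESC markers was lower and that of the neural progenitor markers higher in these Trincr1-ko samples, as given above. The count rests on all 4 PDL samples: it was 2 without WT PDL replicate 1 or without Trincr1-ko PDL replicate 1, and 5 without the other sample of either group. Among the 98 at 1 FPKM or more in every group, 6 were lower and 1 was higher. Of the 11, 8 had no protein-coding overlap.

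After Gm2694, the largest called fall was that of C330046G13Rik (Platr7), at 1.72 and 2.21 FPKM in WT and 0.837 and 0.736 FPKM in Trincr1-ko. The difference was -0.73 ± 0.14 (limma, adjusted p = 0.0201), and the call was lost without any 1 of the 4 PDL samples. Gm807 was lower by 0.62 ± 0.14, D230017M19Rik, which overlaps Pecr, by 0.61 ± 0.14 and Gm26767 by 0.59 ± 0.13. Gm26767 lies 1531 bases from Slc25a36, which was lower too (-0.87, limma, adjusted p = 0.00531) and passed in the genotype by medium interaction (-1.01, adjusted p = 0.0331). Of the 9 called lincRNAs with a tested protein-coding gene within 10000 bases, this was the 1 whose neighbour also passed. D230017M19Rik and Gm26767 also lost their calls without any 1 PDL sample, and Gm807 without 3 of the 4. Gm26637, which RefSeq lists as protein-coding and which overlaps Eif2ak2, was lower by 0.45 ± 0.11.

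Lincenc1 was at 112 and 108 FPKM in WT PDL and at 92.3 and 92.4 FPKM in Trincr1-ko PDL, a small but tight difference of -0.25 ± 0.04 (limma, adjusted p = 0.0104). In 2iL it was at 123 and 120 FPKM and at 104 and 107 FPKM, a difference of -0.20 ± 0.04 that did not pass (adjusted p = 0.0644). Its PDL call was lost without WT PDL replicate 1 or without either Trincr1-ko PDL sample. Of the 18 lincRNAs of the ESC list, 3 were lower in Trincr1-ko PDL, the targeted Gm2694 among them, where 5.77% of all genes were lower. Their median was -0.15. With the genes of other labels or under 1 FPKM, 26 were tested, of which 4 were lower, with a median of -0.07. The further gene was 4930500J02Rik (Platr14), at 79.2 ± 0.680 FPKM in WT PDL and 45.7 ± 0.190 FPKM in Trincr1-ko PDL (SD, n = 2). It differed by -0.78 (limma, adjusted p = 0.00127).

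Of the snoRNA hosts, 3 of 8 were lower in Trincr1-ko PDL, where 5.77% of all genes tested were lower. Snhg6 had 99.5 and 98.2 FPKM in WT and 75.3 and 74.9 FPKM in Trincr1-ko, a difference of -0.39 ± 0.05 (limma, adjusted p = 0.00643) that was called in each alternative fit but the one without Trincr1-ko PDL replicate 1 (adjusted p = 0.0527). 2810008D09Rik (Snhg20) had 44.9 and 51.5 against 32.5 and 36.1 FPKM (-0.48 ± 0.10, adjusted p = 0.0297) and Snhg7 had 22.8 and 23.5 against 18.8 and 18.8 FPKM (-0.29 ± 0.07, adjusted p = 0.0409). These 2 lost their calls without any 1 PDL sample. Between media in WT, a comparison that shares the WT PDL samples, they differed by 0.52, 0.48 and 0.54. The test of whether the genotype difference itself differed between media did not pass for these hosts (limma, adjusted p = 0.0619 for Snhg6, 0.0796 for 2810008D09Rik and 0.0954 for Snhg7). Over all 17 hosts tested, 3 were lower and 1 was higher in Trincr1-ko PDL, where 5.77% of all genes were lower and 6.29% higher.

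The 2 lincRNAs higher in Trincr1-ko PDL are both protein-coding in RefSeq. 1810058I24Rik was at 39.0 and 41.0 FPKM in WT and at 49.8 and 53.1 FPKM in Trincr1-ko (0.36 ± 0.06, limma, adjusted p = 0.0131), and was not called without WT PDL replicate 1 or either Trincr1-ko PDL sample. 6330403K07Rik was at 1.51 and 1.73 FPKM in WT and at 2.80 and 2.75 FPKM in Trincr1-ko (0.53 ± 0.12, adjusted p = 0.0356), and was not called without any 1 PDL sample.

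**Figure D4:**
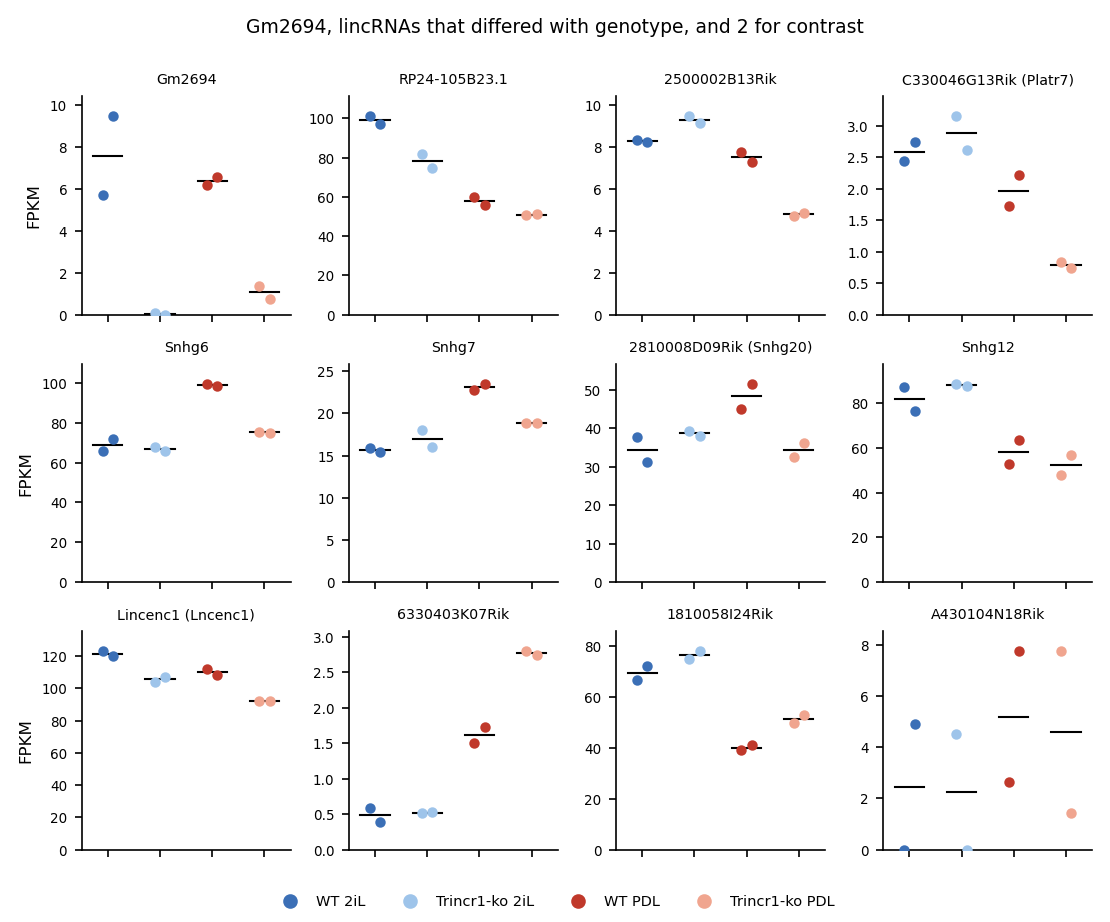
FPKM in each of the 8 samples (points, colored by group, with a bar at the group mean of 2 samples) for Gm2694, for 9 other lincRNAs called between genotypes, and, for contrast, for Snhg12 and A430104N18Rik, which were not. Each y axis starts at 0; Snhg6, Snhg7 and 2810008D09Rik stand higher in WT PDL than in the other groups, and the paired points of A430104N18Rik lie far apart.

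The genotype by medium interaction passed for 1 of the 137 lincRNAs, where 1.81% of all genes tested passed, and 24 lincRNAs had an unadjusted p under 0.05, as had 2936 of all genes tested. The lincRNA that passed was 2500002B13Rik, which lies 193 bases from Sap30, a subunit of the SIN3 histone deacetylase complex. It was at 8.35 and 8.26 FPKM in WT 2iL, 9.47 and 9.13 FPKM in Trincr1-ko 2iL, 7.76 and 7.29 FPKM in WT PDL and 4.70 and 4.87 FPKM in Trincr1-ko PDL. The genotype difference was 0.15 ± 0.08 in 2iL and -0.56 ± 0.08 in PDL, and the interaction was -0.70 ± 0.11 (limma, adjusted p = 0.0368). It was not called when any 1 of the 8 samples was left out. Sap30 differed by -0.03 and -0.14 between genotypes in 2iL and PDL, neither of which passed.

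The 5 lincRNAs whose log2(FPKM + 1) ran most like that of Gm2694 over the 8 samples were Gm17275 (Pearson r = 0.75), Gm19705 (0.73), 5133400J02Rik or Platr20 (0.70), RP23-281H4.5 (0.64) and Lincenc1 (0.64). These values describe 8 samples that form 4 groups of 2.

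The last comparison was between the TRIM71 pulldown and its input, where an RNA counted as bound, by the cutoffs of the study, if its input exceeded 2 FPKM and the ratio of pulldown to input after scaling exceeded 3. The table gives 1 value for each, with no error, so no test was possible. It listed 79 of the 137 lincRNAs. Of the 35 with an input above 2 FPKM, 3 passed (8.57%), where 5.10% of the 9651 transcripts above that input passed. Gm2694 had an input of 2.6 FPKM and a scaled pulldown of 181.1 FPKM, a fold of 69.7. 5430416N02Rik had an input of 22.4 and a scaled pulldown of 313.9 FPKM, a fold above that of 99.3% of the transcripts over the input cutoff. Gm17586 had an input of 2.3 and a scaled pulldown of 15.5 FPKM, a fold of 6.74. Its input lay just over the cutoff, as did that of Gm2694, and with an input above 5 FPKM only 5430416N02Rik remained of 16.

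Most of the other lincRNAs were listed at 0 in the pulldown. This held for 27 of the 35 (77.1%), where 46.4% of all transcripts above the input cutoff were at 0. Among all transcripts the share at 0 was smaller at higher inputs, and 19 of the 35 lincRNAs had an input of 2 to 5 FPKM. Within each input range the lincRNAs still had the larger share, and the part of the input in this was not tested. At inputs of 2 to 5 FPKM the pulldown was at 0 for 17 of 19 lincRNAs, against 72.5% of transcripts, at 5 to 20 FPKM for 7 of 8, against 52.3%, and above 20 FPKM for 3 of 8, against 23.3%. Total RNA was selected with poly-T beads and RNA from the pulldown was not, and the part of this in the zeros was not tested. Snhg12, with the highest input of 153.2 FPKM, had a scaled pulldown of 8.6 FPKM, a fold of 0.0561. 1810058I24Rik, at 95.8 FPKM of input, and Malat1, at 25.3 FPKM, were listed at 0. Lincenc1, with 38.2 FPKM of input, had a fold of 0.301. Snhg7 reached a fold of 2.60 and 2410004N09Rik one of 1.30. In the RNA-seq samples, 5430416N02Rik was at 15.1 ± 0.877 to 18.3 ± 2.64 FPKM (SD, n = 2) over the 4 groups with a lowest adjusted p of 0.163 by limma, and Gm17586 passed only in Trincr1-ko between media (-0.38 ± 0.12, adjusted p = 0.0375), a call lost in 8 of 17 alternative fits.

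**Figure D5:**
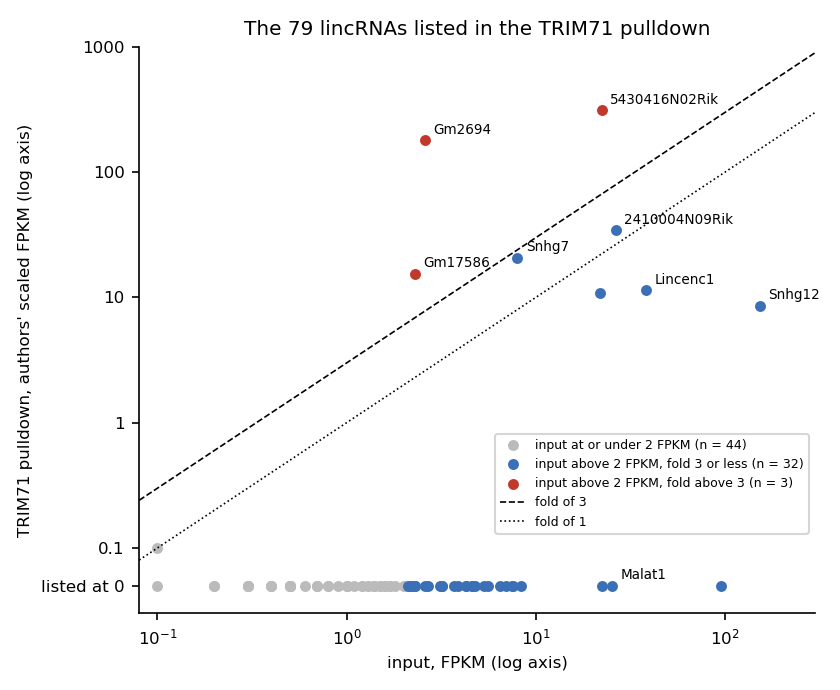
Input FPKM (x axis, log scale) against the scaled FPKM of the TRIM71 pulldown (y axis, log scale, with values of 0 on a line of their own) for the 79 lincRNAs listed. The 3 red points above the dashed line of a fold of 3 are Gm2694, 5430416N02Rik and Gm17586, and most other points lie on the line of 0.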

How the data were processed

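The authors aligned reads with STAR 2.5.0 to mm9 and deposited FPKM per gene from Cufflinks 2.2.1 (versions per the labels), although the gene positions in the table are those of GRCm38. The authors describe these FPKM as normalized, without naming the scheme, and strand and counts are not given in the sources used here, and no table column was left unmapped (0). The 137 lincRNAs and all gene lists were chosen with earlier results of these data known.

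Here, genes with a mean above 0.2 FPKM (15430) were tested with limma 3.58.1 in R 4.3.3 on log2(FPKM + 1), which understates changes of low genes. A fit with a variance trend held all 4 groups without a replicate block, and Benjamini-Hochberg adjustment ran over all genes tested. Replicate errors are SD, and those of differences SE. The 5 largest called rises and falls of each comparison without overlap of samples, the 10 most abundant lincRNAs, members of the lists, bound lincRNAs and their neighbours were named. The code was tested on simulated data.

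For the pulldown, the deposited FPKM and scaled FPKM stand in single columns for pulldown and input, and whether replicates were pooled is not stated. The authors removed reads on transcripts without poly(A) and scaled each FPKM to the mean over transcripts. The fold column of the authors was not used, and the empty-vector pulldown was not analysed here. Names, microRNAs and promoter windows came from RefSeq (GRCm38.p6), where 70 lincRNAs matched by symbol, 19 by an older symbol and 48 not at all. Tables were joined with Python 3.11.15 and pandas 2.3.3. Alternatives covered the added FPKM, filters, scaling, the variance trend, the replicate block, fits of only the groups compared, single libraries left out and the pulldown cutoffs.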

Additional observations from a re-analysis of the deposited data

Results flagged for a closer look

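2500002B13Rik was the 1 lincRNA of the 137 whose genotype difference itself differed between media in the fit reported. Its interaction was -0.70 on the log2(FPKM + 1) scale (limma, adjusted p = 0.0368), with 9.47 and 9.13 FPKM in Trincr1-ko 2iL above 8.35 and 8.26 in WT 2iL, and 4.70 and 4.87 FPKM in Trincr1-ko PDL below 7.76 and 7.29 in WT PDL. It was not called in 9 of 16 alternative fits, those without any 1 library and that with the replicate block, and 2 lincRNAs passed with 0.1 FPKM added or a mean of at least 1 FPKM. Groups of 2 samples were too small to look for single samples that stand apart.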

How the results depend on the processing

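The medium counts were steady over the alternatives, with 56 to 65 lincRNAs called in WT (64 as reported) and 56 to 68 in Trincr1-ko (66 as reported), and with 51 to 65 and 50 to 64 when 1 library was left out. The genotype count in 2iL (2) was 1 without a filter on low values, with median-of-ratios scaling, without the variance trend and without any 1 library, and 0 with only the 2 groups compared. The genotype count in PDL (13) was 3 with only the 2 groups compared and 2 to 11 with 1 library left out. The interaction count (1) was 2 with 0.1 FPKM added or a mean of at least 1 FPKM, and 0 without any 1 library. With the input of the pulldown above 5 FPKM, 1 lincRNA was called bound instead of 3. Scaling to the FPKM sum without Yam1, chosen after seeing the data, left 1 lincRNA called between genotypes in 2iL. The medium counts join rises and falls, and over all genes tested that split moved with the scaling, as given with the medium comparison. The cause was not tested for any of these.

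The replicate numbers did not pair the samples, since same-numbered samples of 2 groups had correlations of -0.05 to 0.01 in their deviations. With the number as a replicate block, 1 lincRNA was called between genotypes in 2iL, 8 in PDL and 0 in the interaction, against 64 and 66 between media.

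Of the 85 changes of named lincRNAs that were called, 49 were called in every alternative, and 35 were not called without some 1 library, among them 11 of the 12 genotype changes in PDL. With 0.1 FPKM added, 28 were moved by more than 1.5 times. None of the called changes turned its direction in these alternatives. With 2 samples per group and a depth that is only estimated, small differences of lincRNAs near 1 FPKM could not be resolved.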
